A study of Mus musculus with 8 samples.

Results

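The comparison described here sets 1 array of wild-type mouse macrophages given lipopolysaccharide (LPS) together with EGTA for 24 h against 1 array of the same cells given both for 6 h. These are 2 of the series' 8 arrays, chosen by their sample titles. The macrophages were grown from bone marrow of C57BL/6 mice aged 6 to 8 weeks, cultured for 7 days with M-CSF, the growth factor that turns marrow progenitors into macrophages. LPS, a component of the outer membrane of Gram-negative bacteria, was of the smooth form and was used at 1 µg/ml. EGTA binds calcium outside the cell. Its concentration was labelled as 2 mM for the 24 h sample and was not given for the 6 h sample. For reference the series holds wild-type cells with LPS alone for 24 h and 6 h and wild-type cells without stimulus. It also holds macrophages of Cd14-/- C57BL/6 mice, which lack the LPS co-receptor CD14, after 24 h and 6 h of LPS and without stimulus. No array held EGTA without LPS, so each of these differences describes the passage of time under both agents. Each group was a single array, so no difference below has a replicate check and none carries a p-value. According to the series' title and design text, EGTA served to separate effects of calcium influx from other effects of LPS.

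LPS is sensed by the TLR4 receptor complex, which switches on the transcription factor NF-kB and, through type I interferon, a large set of antiviral genes. Macrophages answer in waves, with cytokine and chemokine transcripts early and antigen presentation, repair and metabolic genes later, while feedback inhibitors cut back the first wave. CD14 also sets off calcium influx in some myeloid cells, which activates the phosphatase calcineurin and its target NFAT.

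Values are array intensities after quantile normalization, which gives all arrays the same distribution. They were floored at 38.4, the 40th percentile of all values, and a fold against an array at the floor is given as "at least". Of 12394 genes measured, 6887 had a brighter array above 88.2, the median of all values, and were compared. The gene nearest above that limit, Atmin, reached 88.23 and differed by 0.61 on the log2 scale, and the nearest below it, Gdf9, reached 88.15 and differed by 0.26. A gene was called higher or lower where the arrays differed at least 2-fold. The arrays were also unlike in ways that preceded normalization. The median deposited intensity was 74.4 at 24 h and 55.9 at 6 h with EGTA, and spiked-in control probe sets ran the other way, with geometric means of 1496 and 1904. The yield of labelled cRNA was 31.4 µg at 24 h and 64.7 µg at 6 h from 0.3 µg of RNA, the lowest yield of the series being that at 24 h. RNA integrity numbers were 9.5 and 9.7, and the actin probe sets, whose 3' to 5' ratio reports RNA breakage, gave 1.18 and 1.27. The part of these differences in the results was not tested. Fewer cells expressing a gene and less RNA per cell cannot be told apart in such bulk samples.

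All 10 macrophage markers examined were measured above the filter, with summed intensities of 79257 at 24 h and 71767 at 6 h. Aif1, a calcium-binding protein of macrophages, was the marker that was at least 2-fold higher, at 3497 against 623. Defining markers of other cells were mostly at the floor on both arrays. This held for 7 of 10 T cell markers, Cd3e and Cd8a among them, 7 of 9 B cell markers, 8 of 9 fibroblast markers and 6 of 7 endothelial markers. It also held for 7 of 11 neutrophil and granulocyte precursor markers, whose summed intensity was 915 at 24 h and 550.2 at 6 h, with S100a8, which was at least 2-fold higher, at 403 and 118. Ighm, the heavy chain of IgM, was at 52.0 and 245. S100a8 and Ighm were named after their values were seen. Other markers passed the filter without being called, namely Cd4 and Zap70 of T cells, Cd22 of B cells and Klrk1 of NK cells. So did Kdr of endothelial cells and Mmp8 of the neutrophil list. Summed intensities of the other lists were 713 at 24 h and 634 at 6 h for T cells, 442 and 588 for B cells, and 607 and 492 for NK cells. They were 442 and 363 for dendritic cells, 991 and 1029.6 for endothelial cells and 365 and 345 for fibroblasts. Itgax was the one dendritic cell marker above the filter, at 207 and 101 (2.05-fold higher), while Flt3, Zbtb46, Ccr7, Xcr1 and Cd209a were at the floor on both arrays. Their part in the results below was not tested.

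With EGTA, 6 of 10 genes of MHC class II antigen presentation and 3 of 14 immediate early genes were higher after 24 h of LPS than after 6 h. Of the mitosis genes 27 of 34 were lower, as were 8 of 24 glycolysis and hypoxia-responsive genes, 4 of 14 metal genes and 5 of 15 cytokine genes. The large interferon-induced and guanylate-binding protein families differed little between the arrays. Of the 6887 genes, 386 were at least 2-fold higher at 24 h (5.60%) and 423 at least 2-fold lower (6.14%). Each list count with EGTA stands beside these shares. At least 4-fold, the counts were 38 higher and 55 lower. The median difference was 0.02 on the log2 scale, with 95% of genes between -1.45 and 1.33. Among the called genes, 34 of those higher were at the floor at 6 h and 51 of those lower were at the floor at 24 h. This balance follows from the normalization: among called genes 47.7% were higher, against 86.8% with intensities as deposited, where all compared genes shifted by a median of 0.47.

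**Figure D1:**
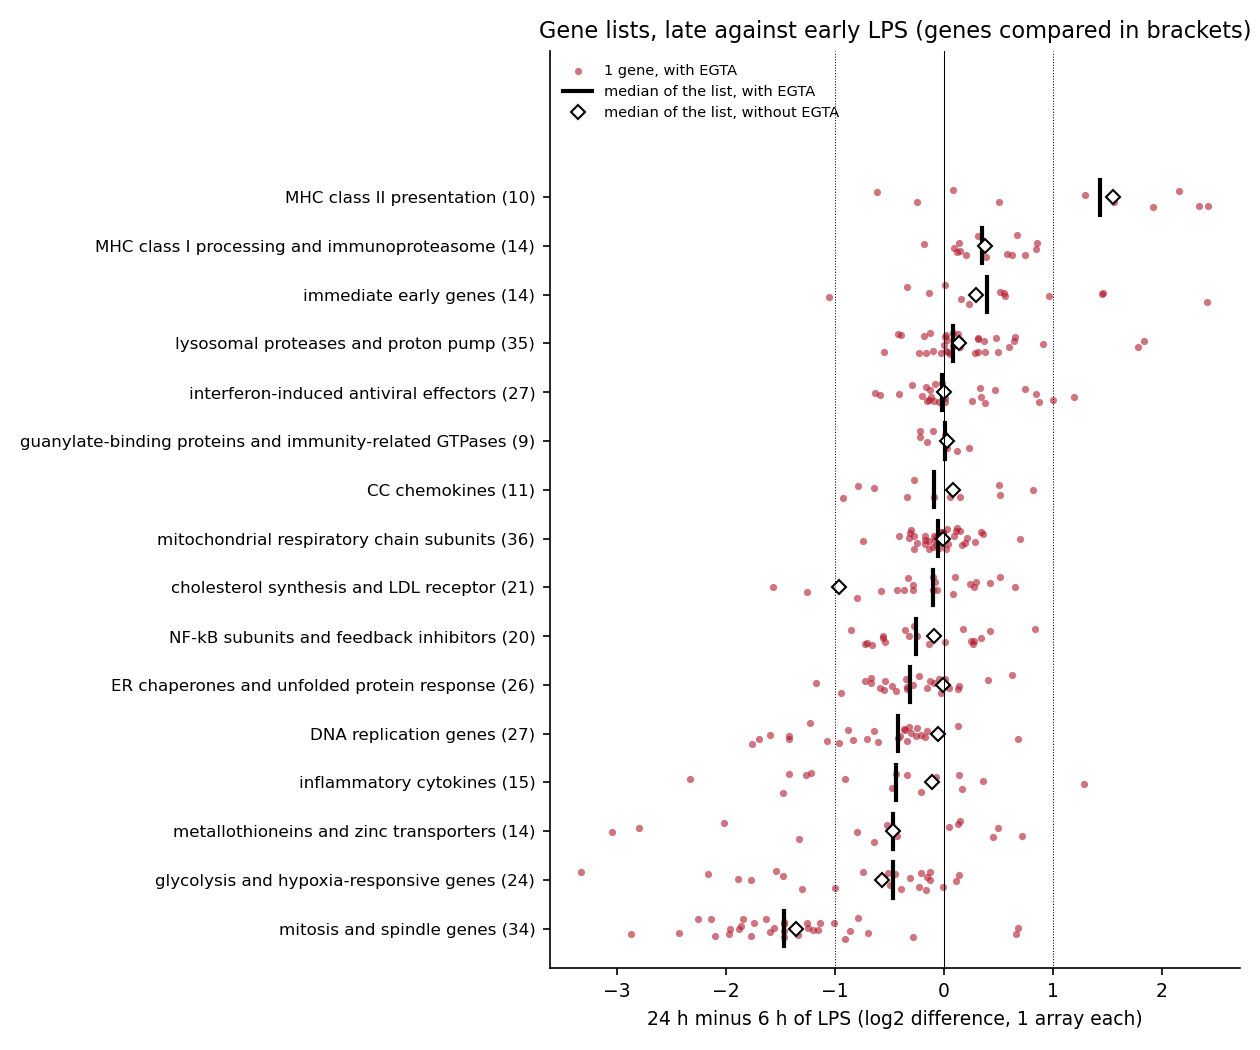
Log2 differences between 24 h and 6 h of LPS with EGTA (horizontal axis) for the compared genes of 16 gene lists, 1 point per gene, with the list's median as a bar and the list's median in wild-type cells without EGTA as a diamond. MHC class II genes lie highest, with a median of 1.43, mitosis genes lowest, with a median of -1.47, and in the cholesterol synthesis list the diamond, at -0.96, lies far from the bar, at -0.10.

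MHC class II molecules display peptides from ingested proteins to helper T cells. Of 10 genes of this pathway compared, 6 rose and none fell, with a median of 1.43 against 0.02 over all genes. H2-Eb1, a beta chain, had an intensity of 2232 at 24 h and 413 at 6 h (5.41-fold). H2-Ab1, the other beta chain, stood at 3063 and 604 (5.07-fold), and H2-Aa, an alpha chain, at 4075 and 1074 (3.80-fold). All these chains were higher at 24 h, as was their partner Cd74, the invariant chain that guards the peptide groove, at 8414 and 1882 (4.47-fold). H2-DMa, which helps load peptides, had 1123 at 24 h and 380 at 6 h, and H2-Oa, which restrains that loading, 101 and 41.1. Ciita, the master regulator of the class II genes, was at 195 and 137 and Rfx5, which binds their promoters, differed by -0.61. Neither regulator reached 2-fold, unlike the chains. Of 14 genes of MHC class I processing none was called, although 13 differed upward, with a median of 0.35. Psme1, a proteasome activator, was at 9475 and 5265 and the peptide transporter gene Tap2 at 3161 and 1878. Before stimulation, wild-type cells had H2-Eb1 at 605 and H2-Ab1 at 928, between the values at 24 h and at 6 h with EGTA.

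Among genes measured above the floor on both arrays, the largest increase belonged to F10, which encodes coagulation factor X, at 1948 at 24 h and 205 at 6 h (9.49-fold). Fpr2, a receptor for bacterial formyl peptides, had 3266 at 24 h and 466 at 6 h (7.01-fold), and Cfb, factor B of the alternative complement pathway, 4019 and 813 (4.94-fold). Of 15 complement and chemoattractant receptor genes 4 rose and 1 fell, beside 5.60% higher and 6.14% lower over all genes. The others that rose were Cxcr4, the receptor for CXCL12, at 916 and 391, and Itgax, an integrin and the dendritic cell marker given above. The complement C5a receptor gene C5ar1 fell to 298 at 24 h, against 959 at 6 h (3.22-fold lower). Receptors for formyl peptides and for C5a, both of which guide migration, thus differed in opposite directions.

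Slc6a4, the serotonin transporter, was at 641 at 24 h and 88.2 at 6 h (7.26-fold). Metrnl, a secreted protein, was at 2553 and 412 (6.20-fold) and Gstt1, a glutathione transferase, at 553 and 89.2 (6.20-fold). Mnt, a partner of MAX that opposes MYC, stood at 488 and 70.2 (6.95-fold), and the long non-coding gene Dleu2 at 766 and 113 (6.78-fold). These genes ran from different starting points, since unstimulated wild-type cells held 480.5 for Mnt and 4465 for Metrnl but were at the floor for Slc6a4. Bmp8a, a signalling protein of the TGF-beta family, was at 204 and 39.7, the lower value close to the floor. Narf, a nuclear protein that binds prelamin A, was at 543 and 107 (5.09-fold). Genes at the floor at 6 h included Spic, the transcription factor of iron-recycling macrophages, which reached 444 at 24 h and so was at least 11.6-fold higher. Klra2, an inhibitory receptor of the Ly49 family, reached 221 (at least 5.76-fold), the clock output gene Dbp 180 (at least 4.69-fold), the sialic acid receptor gene Siglec1 141 (at least 3.66-fold) and the lectin gene Clec1b 140.2 (at least 3.65-fold).

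Of 14 immediate early genes, whose transcripts appear within minutes of a stimulus, 3 rose and 1 fell. The shares over all genes were 5.60% and 6.14%. Egr1 was at 1335 at 24 h and 249.7 at 6 h (5.35-fold), Fos at 3565 and 1304 (2.73-fold) and Ier2 at 486 and 177 (2.74-fold). All of them were above their 6 h value late in the response and below the level of unstimulated wild-type cells, 2175 for Egr1, 4044 for Fos and 624 for Ier2. Klf4 was lower at 24 h, at 540.3 against 1115, although another of its probe sets did not reach 2-fold. Dusp6, a phosphatase that inactivates the kinase ERK, was higher too, at 475 and 148 (3.20-fold), while Dusp2 was at 489 and 1096 (2.24-fold lower). Zfp36l1, an mRNA decay factor, was at 612 at 24 h and 108 at 6 h (5.69-fold), against 875 before stimulation.

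Of 11 prostaglandin and leukotriene genes 4 rose and 1 fell, beside 5.60% higher and 6.14% lower over all genes. Pla2g7, which degrades platelet-activating factor, was at 812 at 24 h and 186 at 6 h (4.36-fold), and the prostaglandin E receptor gene Ptger4 at 858 and 265 (3.23-fold). Ptger2, another such receptor, was at 101 at 24 h and at the floor at 6 h (at least 2.64-fold). Ptges, the inducible prostaglandin E synthase, was at 1106 and 485, with another probe set short of 2-fold. Ltc4s, the leukotriene C4 synthase, was at the floor at 24 h and at 125 at 6 h (at least 3.26-fold lower), and Ptgs2, the inducible cyclooxygenase upstream of all prostaglandins, had 631 and 1140.1.

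Iron genes rose in 4 of 13 and fell in 1, beside 5.60% higher and 6.14% lower over all genes. Lcn2, which traps bacterial iron carriers, was at 649 at 24 h and 256 at 6 h, the phagosomal metal transporter gene Slc11a1 at 2649 and 1218, the ferroxidase gene Cp at 531 and 219.9 and the iron exporter gene Slc40a1 at 298 and 142. The transferrin receptor gene Tfrc fell to 1014 at 24 h, against 2392 at 6 h. Cp, Slc40a1 and Tfrc each had a probe set that did not reach 2-fold. Hamp, which encodes hepcidin, the hormone that blocks the iron exporter, fell to 142 at 24 h, against 1031 at 6 h (7.29-fold lower), and was at the floor before stimulation.

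For lists of receptors, lysosome and lineage genes, the counts below stand beside 5.60% higher and 6.14% lower over all genes. Of 13 C-type lectin and Fc receptor genes 2 rose, Clec4n at 957 at 24 h and 202 at 6 h (4.75-fold) and Clec4a2 at 1364 and 447 (3.05-fold), which had another probe set short of 2-fold. The mannose receptor gene Mrc1 fell, at 1904 against 5741. Of 17 pattern receptors and adaptors only Tlr1, the partner of TLR2 for lipopeptides, was called, at 3639.6 and 1179.8 (3.09-fold), while Tlr2 had 3034 and 5294 and Cd14 5998 and 11088. Of 27 growth factor receptor and lineage genes 4 rose and 1 fell. The G-CSF receptor gene Csf3r was at 2166 and 638 (3.40-fold), the transcription factor gene Maf at 106 and 46.7 and Cebpa at 216 and 104, and Bhlhe40 fell, at 302 against 745. Of 35 lysosomal genes 2 rose, the acid phosphatase gene Acp2 at 6802 and 1896 (3.59-fold) and the cathepsin K gene Ctsk at 966 and 281 (3.44-fold). Of 13 cholesterol efflux genes 3 rose, led by Abcg3, a transporter of the family, at 340.2 and 103 and by Nr1h3, the sterol sensor LXR alpha, at 974 and 298 (3.27-fold).

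**Figure D2:**
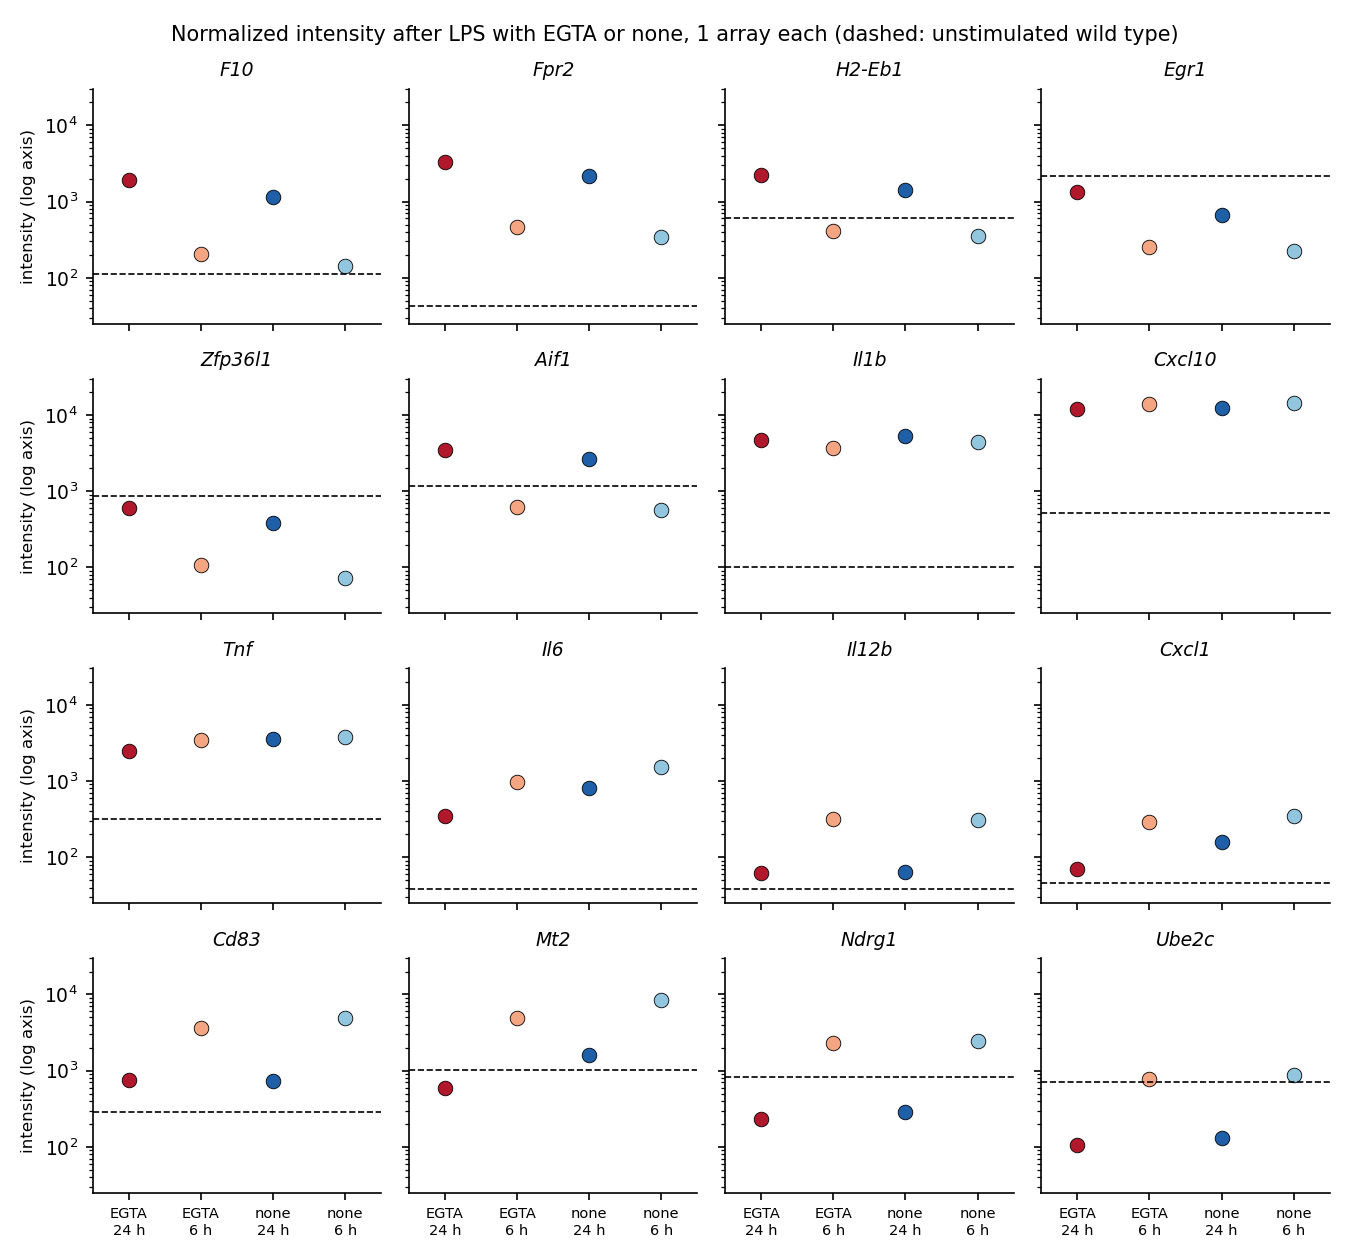
Normalized intensity (vertical log axis) of 16 genes, 1 array each, in wild-type cells after 24 h and 6 h of LPS with EGTA and after 24 h and 6 h of LPS alone, with the unstimulated wild-type array as a dashed line. F10, Fpr2, H2-Eb1, Egr1, Zfp36l1 and Aif1 are higher at 24 h in both pairs, Il6, Il12b, Cxcl1, Cd83, Mt2, Ndrg1 and Ube2c lower, and Il1b, Cxcl10 and Tnf are at similar heights on the 4 stimulated arrays.

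Mitosis genes formed the list with the lowest median. Of 34 compared, 27 fell and none rose, with a median of -1.47. Ube2c, a ubiquitin-conjugating enzyme that works with the anaphase-promoting complex, had an intensity of 107 at 24 h and 779.6 at 6 h (7.31-fold lower). Ccnb2, a mitotic cyclin, was at 118 and 563 (4.78-fold lower), and the checkpoint kinase gene Bub1 at 50.7 and 274 (5.40-fold lower). Cks2, a subunit of cyclin-dependent kinases, was at 80.9 and 348, and Hmmr, a spindle protein, was at the floor at 24 h and at 169.6 at 6 h (at least 4.42-fold lower). The related gene Cks1b was at 159 and 1003 (6.33-fold lower). Several of these late values lay near the floor, so the folds are imprecise. Incenp and Tpx2 differed the other way without reaching 2-fold, by 0.68 and 0.66. In unstimulated wild-type cells Ube2c was at 708, Bub1 at 306 and Ccnb2 at 341, so the 6 h values were not below the starting levels for Ube2c and Ccnb2.

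The promoters of the mitosis genes were searched for the cell cycle homology region (CHR), read as TTTGAA on either strand, in RefSeq windows of build GRCm38.p6 that run from 250 bases before to 50 after each transcription start. Of 28 mitosis genes with such a window 19 held it, 17 of the 25 that were called among them. The letters were in 69.0% of the mitosis windows and 10.0% of those of DNA replication genes, against 17.9% of all 32851 windows. A match describes letters in a window and not a bound site. The windows of Ube2c and Ccnb2, shown because they belong to the genes with the largest decreases that held a match, read 5' to 3' with the CHR letters of either strand in capitals.
Ube2c, chr2:164769679-164769978, strand plus: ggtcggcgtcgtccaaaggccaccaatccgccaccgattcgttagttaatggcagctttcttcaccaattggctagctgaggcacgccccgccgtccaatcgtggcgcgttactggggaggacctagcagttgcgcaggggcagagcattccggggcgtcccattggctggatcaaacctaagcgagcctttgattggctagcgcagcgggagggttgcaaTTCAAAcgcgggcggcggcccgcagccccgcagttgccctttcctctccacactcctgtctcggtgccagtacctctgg
Ccnb2, chr9:70421505-70421804, strand minus: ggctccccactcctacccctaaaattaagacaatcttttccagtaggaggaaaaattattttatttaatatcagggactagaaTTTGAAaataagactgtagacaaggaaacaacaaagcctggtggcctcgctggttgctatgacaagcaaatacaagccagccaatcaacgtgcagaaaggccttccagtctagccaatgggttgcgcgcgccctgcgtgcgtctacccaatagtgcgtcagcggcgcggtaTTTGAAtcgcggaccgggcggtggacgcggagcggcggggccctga
In Ube2c the letters begin 29 bases before the start site. Ccnb2 holds them at 2 places.

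DNA replication genes fell in smaller number. Of 27, 7 fell and none rose, with a median of -0.42. Mcm10, needed to start replication forks, was at 81.8 at 24 h and 277 at 6 h (3.39-fold lower), Rfc3, of the clamp loader, at 278 and 741 (2.67-fold lower), and Rrm2, of the enzyme that makes deoxynucleotides, at 66.8 and 179, with another probe set of Rrm2 short of 2-fold. The thymidine kinase gene Tk1 and the polymerase gene Pola1 were at the floor at 24 h and at 124 and 116 at 6 h. The E2F letters TTTCGCG, on either strand, were in 23.3% of 30 windows of these genes and in 0.849% of all windows, while 3.45% of 29 mitosis windows held them. Among 17 D-type cyclins, CDK inhibitors and E2F genes 4 fell and 1 rose, where with intensities as deposited 0 of 16 fell and 4 rose. Over all genes 6.14% were lower and 5.60% higher after quantile normalization. Ccnd2, a D-type cyclin, was at 507 and 1277, and the CDK inhibitor gene Cdkn2d at 629 and 1533, whereas E2f1 was higher at 24 h, at 282 against 139.

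Glycolysis and hypoxia-responsive genes fell in 8 of 24 and rose in none, with a median of -0.47. Ndrg1, a hypoxia-induced gene, was at 230.1 at 24 h and 2311 at 6 h (10.0-fold lower), and all 5 of its probe sets differed by between -3.33 and -2.96. Ak4, a mitochondrial adenylate kinase, was at 136 and 614 (4.51-fold lower), the glucose transporter gene Slc2a1 at 812 and 2766 (3.41-fold lower) and the hexokinase gene Hk2 at 715 and 2075 (2.90-fold lower). The other 16 were not called, among them Hk1 at -0.55, Pfkl at -0.16, Ldha and Gapdh at -0.13 each, Tpi1 at -0.15 and Pkm at -0.21. Pfkp, of the committed step, was at 498 and 1845, with another probe set short of 2-fold. None of 36 respiratory chain subunits was called, and their median was -0.05.

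Metallothioneins bind zinc and copper and are induced by free metal. Mt2 was at 589 at 24 h and 4893 at 6 h (8.30-fold lower) and Mt1 at 1382 and 5612 (4.06-fold lower). The zinc exporter gene Slc30a4 was at 193 and 1346 (6.96-fold lower) and the importer gene Slc39a8 at 128 and 320.2 (2.51-fold lower). These were the 4 that fell of 14 metal genes, none of which rose. At 24 h Mt1 and Mt2 stood below the level of unstimulated wild-type cells, 3358 and 1027. In wild-type cells without EGTA they were at 2992 and 1621 at 24 h, so there Mt1 but not Mt2 was below that level. The metal response element, read as TGCACNC on either strand, was in the promoter windows of all 4 genes that fell and in 6 of the 12 with a window, 46.2% of the list's windows against 12.6% of all. The windows of Mt2 and Slc30a4, the genes of this list with the largest decreases, are shown with the element in capitals.
Mt2, chr8:94172368-94172667, strand plus: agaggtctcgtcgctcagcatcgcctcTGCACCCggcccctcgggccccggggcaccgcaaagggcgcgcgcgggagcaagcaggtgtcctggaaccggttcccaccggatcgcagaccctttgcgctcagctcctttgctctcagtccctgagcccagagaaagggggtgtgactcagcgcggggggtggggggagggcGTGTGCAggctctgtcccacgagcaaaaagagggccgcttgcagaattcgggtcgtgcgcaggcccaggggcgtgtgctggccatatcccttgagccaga
Slc30a4, chr2:122702614-122702913, strand minus: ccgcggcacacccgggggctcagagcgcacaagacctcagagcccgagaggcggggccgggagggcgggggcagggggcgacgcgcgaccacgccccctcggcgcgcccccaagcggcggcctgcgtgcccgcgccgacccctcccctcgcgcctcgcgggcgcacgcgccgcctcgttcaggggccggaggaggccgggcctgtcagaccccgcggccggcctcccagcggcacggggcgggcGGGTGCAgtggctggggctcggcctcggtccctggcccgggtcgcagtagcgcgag
Mt2 holds the element at 2 places, beginning 223 and 50 bases before the start, and Slc30a4 at 1 place.

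Cytokine genes did not move as a block. Of 15 compared, 5 fell and 1 rose, beside 6.14% lower and 5.60% higher over all genes. Il12b, the shared subunit of IL-12 and IL-23, was at 62.6 at 24 h and 315 at 6 h (5.04-fold lower), Il6 at 349.7 and 977 (2.79-fold lower) and Il10, the inhibitory cytokine, at 813 and 1894 (2.33-fold lower). Il33 was at 143 and 383 and Tnfsf9, the ligand of the costimulatory receptor 4-1BB, at 259 and 626. Il1a rose, at 1583 and 647 (2.45-fold), while its relative Il1b had 4698 and 3672. Tnf had 2507 and 3398 and Ifnb1 149.8 and 209, neither being called. Among 7 CXC chemokine genes Cxcl1, which attracts neutrophils, was the one that fell, at 71.0 and 287 (4.05-fold lower), and Cxcl10 had 11965 and 13826. None of 11 CC chemokine genes was called, with Ccl22 at 213 and 406 and Ccl8 at 7835 and 4429 at the ends of their range. The NF-kB letters GGANTTTCC, on either strand, were in 3 of 13 cytokine, 3 of 5 CXC chemokine and 0 of 7 CC chemokine genes with a window. Over all genes with a window the share was 1.45%. They were in the windows of both Cxcl1, which fell, and Cxcl10, which was not called. The windows of Cxcl1 and Il6, the decreases that hold it, are shown with the letters in capitals.
Cxcl1, chr5:90890995-90891294, strand plus: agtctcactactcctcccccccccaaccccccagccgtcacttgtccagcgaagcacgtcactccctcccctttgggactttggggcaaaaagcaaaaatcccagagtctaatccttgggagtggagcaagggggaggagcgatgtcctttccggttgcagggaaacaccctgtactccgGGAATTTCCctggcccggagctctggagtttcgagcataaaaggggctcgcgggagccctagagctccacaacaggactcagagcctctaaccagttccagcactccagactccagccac
Il6, chr5:30012864-30013163, strand plus: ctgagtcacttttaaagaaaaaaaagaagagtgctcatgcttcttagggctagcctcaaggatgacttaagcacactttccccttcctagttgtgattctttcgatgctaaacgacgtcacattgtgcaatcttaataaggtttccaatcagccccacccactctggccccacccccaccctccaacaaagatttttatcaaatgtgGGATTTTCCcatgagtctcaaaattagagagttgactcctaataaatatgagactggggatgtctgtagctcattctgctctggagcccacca
The letters begin 70 bases before the start in Cxcl1 and 43 bases before it in Il6.

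Genes of costimulatory, checkpoint and adhesion molecules of the cell surface fell in 3 of 15 and rose in 1. Over all genes 6.14% were lower and 5.60% higher, so 1 gene in a list of this size is near the share. Cd83, a marker of mature antigen-presenting cells, was at 747 at 24 h and 3664 at 6 h (4.90-fold lower), the adhesion receptor gene Cd44 at 3339.9 and 9267 (2.77-fold lower) and Cd40 at 4394 and 9015 (2.05-fold lower). Vcam1, an adhesion molecule, rose to 1156 at 24 h, against 318 at 6 h (3.64-fold). Cd83 and Cd40 thus fell on the arrays on which the class II genes rose. Of 16 matrix protease and inhibitor genes 5 rose and 3 fell. Thbs1, thrombospondin, was at 652 and 126 (5.19-fold) and the membrane protease gene Mmp14 at 2368 and 894 (2.65-fold). Adamts4, an aggrecan-cutting protease, was at the floor at 24 h and at 284 at 6 h (at least 7.39-fold lower), and the urokinase receptor gene Plaur at 479 and 1415 (2.96-fold lower).

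The largest single decrease above the floor was that of Niban1, a stress-responsive gene, at 149 at 24 h and 1559 at 6 h (10.5-fold lower). Spsb1, an adaptor of a ubiquitin ligase that targets nitric oxide synthase, was at 151 and 1236 (8.18-fold lower), and Edn1, the vasoconstrictor endothelin 1, at 136 and 946 (6.97-fold lower). The drug efflux pump gene Abcb1b was at 76.4 and 391, the sialic acid enzyme gene Npl at 40.2 and 253, the protease inhibitor gene Serpinb1a at 68.9 and 396 and the kinase anchor gene Akap2 at 80.1 and 467. Fscn1, an actin bundler, was at 126 and 697, but its probe sets differed by -2.47 and -0.58. At the floor at 24 h were the zinc finger gene Plagl1, at 613 at 6 h (at least 16.0-fold lower), A630072M18Rik, at 426, the gap junction gene Gja1, at 395 (at least 10.3-fold lower) and the sphingosine kinase gene Sphk1, at 247 (at least 6.43-fold lower). The transcription factor gene Stat5a was at 281 and 1091 (3.88-fold lower) and Irf4 at 43.6 and 139, which with Stat4, at the floor at 24 h, made 3 of 14 IRF and STAT genes that fell. Over all genes the share lower was 6.14%.

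Interferon-induced antiviral genes stayed close between the arrays. Of 27, 1 was called, Oas3, a sensor of double-stranded RNA, at 4055 at 24 h and 1764 at 6 h, and the median was -0.02. Bst2, which tethers budding virus, had 8339.7 and 4559.7, and Isg20, an exonuclease, 9931 and 5920.1. None of 9 guanylate-binding proteins and immunity-related GTPases was called, with Gbp2 at 16788 and 15401, Igtp at 8867 and 10303, and a median of 0.01. The interferon-stimulated response element core AAANNGAAA, on either strand, was in 13 of 19 antiviral genes with a window and in all 7 of the GTPases. Over all genes with a window the share was 12.1%. None of 20 NF-kB subunits and feedback inhibitors was called either, although they ranged from -0.85 for Nfkbiz, a coactivator of late NF-kB genes, to 0.84 for Pdlim2, with a median of -0.26. Tnfaip3, the A20 ubiquitin editor, had 1544 at 24 h and 2539.8 at 6 h. No aminoacyl-tRNA synthetase of 17 and no scavenger receptor of 8 was called. Over all genes 5.60% were higher and 6.14% lower, so the absence of calls among 8 or 9 genes is near those shares.

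The series' title refers to calcium and NFAT. Of 11 genes of calcineurin, NFAT and their targets 1 fell and none rose, and the median was 0.03. Rcan1, a calcineurin inhibitor that NFAT itself induces, was at 414 at 24 h and 837 at 6 h (2.02-fold lower). Nfatc3 had 288 and 204 and Ppp3r1, the regulatory subunit of calcineurin, 1281 and 932. Il2, the classic NFAT target in T cells, was at the floor on both arrays. Of 16 genes of calcium release, entry and pumps, Orai1, the pore of store-operated calcium channels, rose, at 591 and 260.4, and the calmodulin kinase genes Camk1 and Camkk2 fell, at 565 against 1284 and at 236 against 506. Orai1 and Camkk2 each had a probe set short of 2-fold. Together these lists held 1 higher gene and 3 lower among 27, beside 5.60% higher and 6.14% lower over all genes. In wild-type cells without EGTA, Rcan1 differed by -1.54, Orai1 by 1.12, Camk1 by -1.30 and Camkk2 by -1.26, so the directions were shared.

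The next 5 lists held between 1 and 4 called genes each, beside 5.60% higher and 6.14% lower over all genes. Among 10 genes of nitric oxide and arginine metabolism Odc1, which starts polyamine synthesis, fell, at 1329 at 24 h against 3234 at 6 h, and Sat1, which breaks polyamines down, was at 8523 against 4231. Nos2, the inducible nitric oxide synthase, had 593 and 1027, and the arginase gene Arg1 was at the floor on both. Among 18 NRF2 and glutathione genes Osgin1 rose, at 196 and 67.6, and the catalase gene Cat and Gclc fell, at 690.4 against 1893 and at 47.5 against 111. Among 19 genes of the ATF4 stress response Ddit3, which encodes CHOP, and Chac1 rose, at 2364 against 930.3 and at 111 against 49.7, while Shmt2 and Psat1 fell, each with a probe set short of 2-fold. Hsph1 was the one of 17 heat shock genes that rose, at 682 and 274, and Casp6 the one of 17 apoptosis genes that fell, at 227 and 474.

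The genes called between 24 h and 6 h with EGTA were next set against classes formed on other arrays, wild-type cells after 6 h of LPS alone over unstimulated cells. Genes already raised 2-fold or more by 6 h of LPS were more often lower than higher at 24 h with EGTA. Genes that had been lowered were more often higher than lower, and most genes of both classes were not called. The 6 h arrays with and without EGTA correlated at 0.993, and a gene near the floor at 6 h can hardly be called lower at 24 h. These classes therefore partly set which calls were possible. Of 718 induced genes compared, 32 were higher at 24 h (4.46%) and 140 lower (19.5%), with a median of -0.38. Of 541 repressed genes, 136 were higher (25.1%) and 13 lower (2.40%), with a median of 0.54. Of 5415 genes in neither class, 144 were higher (2.66%) and 256 lower (4.73%). A further 213 genes passed the filter on an EGTA array but not on the arrays that formed the classes, so they had no class. Of these, 74 were higher (34.7%) and 14 lower (6.57%). The filter shapes these shares, since genes dim at 6 h of LPS alone could enter by being bright at 24 h with EGTA. They are therefore not read as a result. Examples among the repressed genes are Egr1, Zfp36l1 and Dusp6, and among the induced genes Il12b, Edn1 and Cd83. With the classes taken instead from CD14-deficient cells, 6 h of LPS over unstimulated, 67 of 697 induced genes were higher and 78 lower, and 75 of 481 repressed genes were higher and 40 lower.

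**Figure D3:**
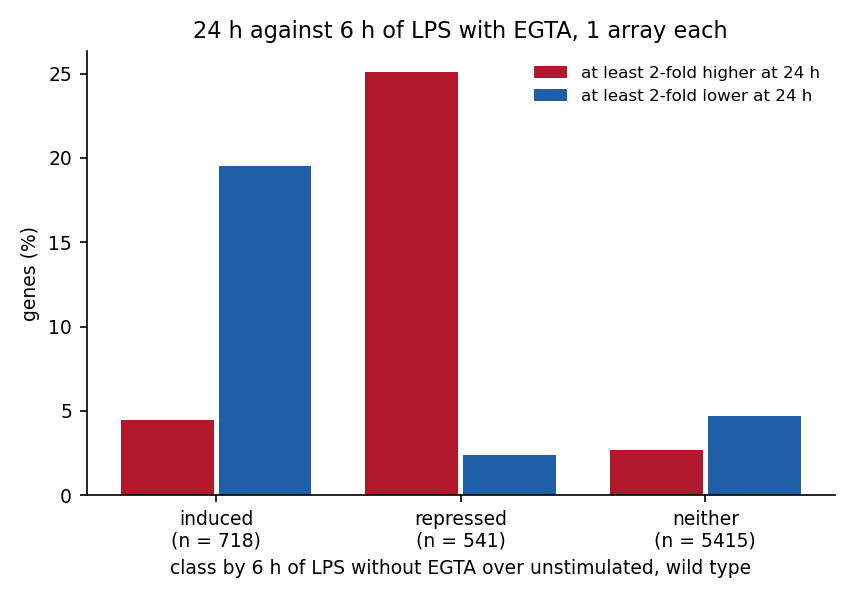
Percentage of genes (vertical axis) at least 2-fold higher or lower at 24 h than at 6 h of LPS with EGTA, in 3 classes formed from wild-type cells at 6 h of LPS alone over unstimulated cells, 1 array each. Of repressed genes 25.1% were higher, and of induced genes 19.5% were lower. The 213 genes without a class are not drawn.

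Most of the time course was shared with wild-type cells that received no EGTA, a pair of arrays that has none in common with the EGTA pair. There, 376 of 6835 genes were higher at 24 h (5.50%) and 380 lower (5.56%). Of the genes higher with EGTA, 229 were also higher without it, 59.3% of those with EGTA and 60.9% of those without. Of the genes lower with EGTA, 255 were also lower without it, 60.3% and 67.1%. Where a gene called with EGTA was compared in both pairs, the signs were the same for 340 of 346 higher and 401 of 405 lower genes. Across 6703 genes the time differences had a Pearson correlation of 0.85 and a Spearman correlation of 0.81. These points share arrays and probe sets and are not independent. Mitosis genes had medians of -1.47 with EGTA (34 genes) and -1.36 without (31 genes), and metal genes -0.47 in both. Within the metal list Mt2 differed by -3.05 with EGTA and -2.38 without, and Mt1 by -2.02 and -1.47. Of the 14 metal genes, 8 had a greater time difference with EGTA. MHC class II genes had 1.43 with EGTA (10 genes) and 1.55 without (9 genes). Gene by gene, the class II time difference was greater with EGTA for 7 of 10, with a median excess of 0.12.

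**Figure D4:**
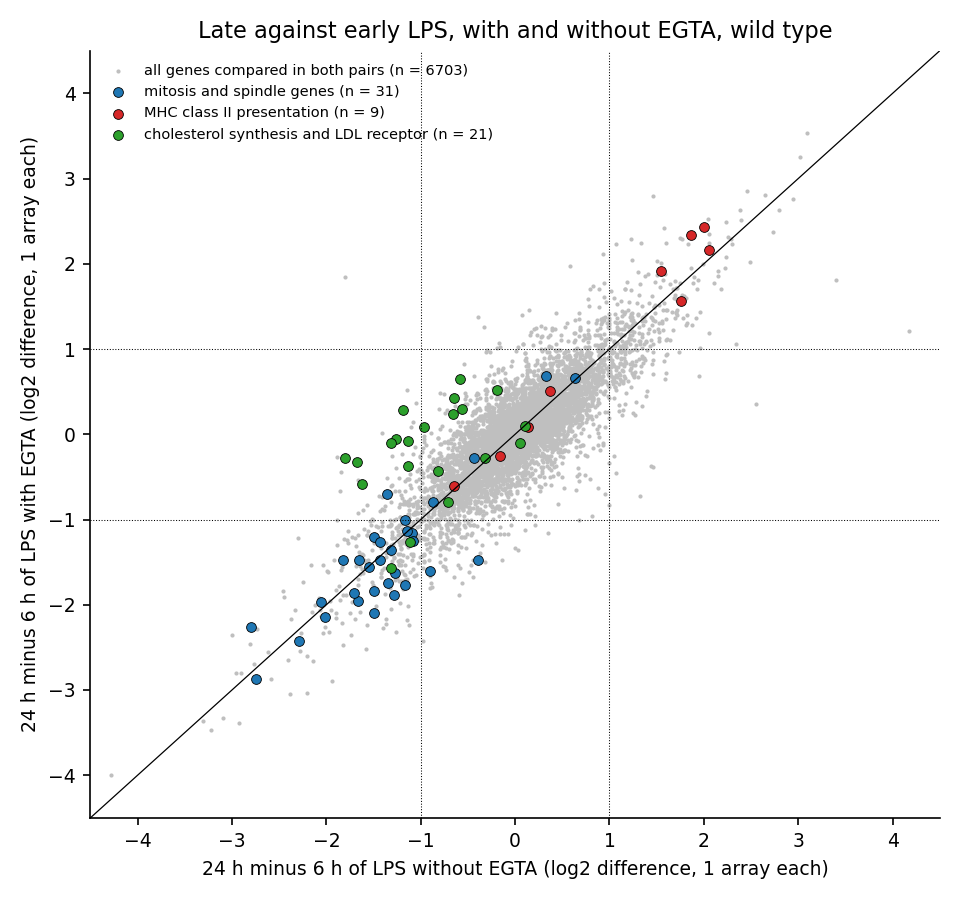
Time difference with EGTA (vertical axis) against that without EGTA (horizontal axis) in wild-type cells, both as log2 of 24 h over 6 h, 1 point per gene for 6703 genes, with the diagonal and 2-fold limits drawn. Most mitosis genes lie at the lower left and 5 of 9 MHC class II genes at the upper right, near the diagonal, while most cholesterol synthesis genes lie above it.

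The time courses parted for cholesterol synthesis, the pathway that SREBP2 switches on when sterol is low in the endoplasmic reticulum. With EGTA 2 of 21 genes fell, against 10 of 21 in wild-type cells without it, and medians were -0.10 and -0.96. In CD14-deficient cells without EGTA 2 of 21 also fell and 1 rose, with a median of -0.38. The remaining values without EGTA in this paragraph are from wild-type cells. Against those cells, the time difference was greater with EGTA for 16 of 21, with a median excess of 0.90. Over all genes it was greater for 47.2% and the median was -0.02. Hmgcs1, the synthase before the rate-limiting reductase, was at 4975 at 24 h and 6031 at 6 h with EGTA, and at 2080 and 7245 without. Idi1, which makes the active isoprene unit, was at 1935 and 1591 with EGTA, and at 623 and 1423 without. Sqle, the squalene epoxidase, was at 1092 and 1372 with EGTA, and at 504 and 1614 without. The 24 h value without EGTA was thus the low one for all 3. Fdps had 2352 and 3509 with EGTA and 1158 and 3565 without. Insig2, which holds SREBP back, and Scap, which escorts it, fell in both pairs, by -1.57 and -1.26 with EGTA and by -1.31 and -1.11 without. The fatty acid list was greater with EGTA for 9 of 14, with a median excess of 0.20. In it Fasn had 155 and 210.5 with EGTA and 56.3 and 201 without, and the desaturase gene Scd2 1863 and 2243 with EGTA and 655 and 2424 without, while for Fads2 and Scd1 the time difference was smaller with EGTA, by -0.23 and -0.20. The sterol element letters TCACNCCAC were in the window of 1 of 17 of the cholesterol genes.

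**Figure D5:**
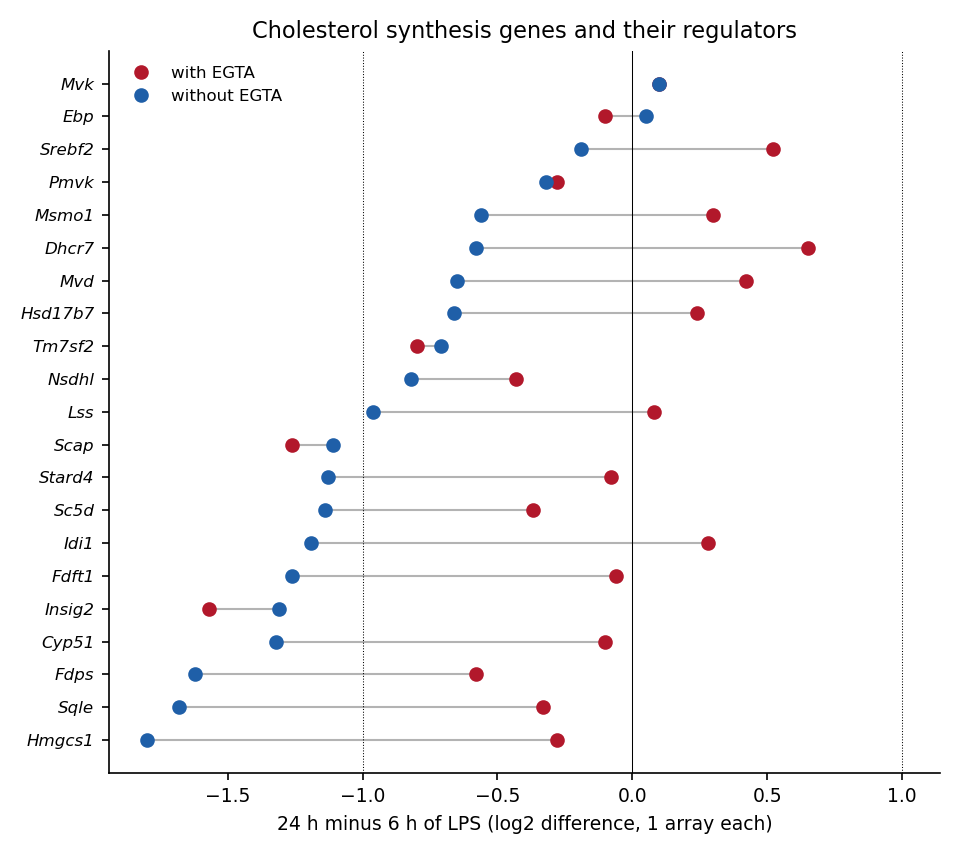
Log2 difference between 24 h and 6 h of LPS (horizontal axis) for the 21 compared genes of cholesterol synthesis and its regulators, with EGTA and without, 1 array each, ordered by the value without EGTA. For 16 of 21 genes the value with EGTA lies to the right, and Insig2 and Scap lie beyond -1 in both.

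The difference of time differences was at least 1 log2 unit greater with EGTA for 47 of 6620 genes (0.710%) and at least 1 smaller for 55 (0.831%), counted over genes above the floor on all 4 arrays. Each value draws on 4 single arrays, and with intensities as deposited all genes shifted upward by a median of 0.91. The list medians below are not taken relative to all genes. With intensities as deposited, the median differences of time differences relative to all genes kept their sign. They were -0.45 for DNA replication genes, 0.30 for p53 targets and -0.29 for endoplasmic reticulum chaperones. DNA replication genes leaned the other way from cholesterol genes, with a time difference greater with EGTA for 1 of 27 and a median of -0.45. Without EGTA 3 of these 27 fell, against 7 with it. Rpa2, of the single-strand binding complex, had 70.9 and 138 with EGTA and 183 and 104 without, and Mcm6 868 and 1826 with EGTA and 1423 and 1929 without. Targets of p53 were greater with EGTA for 15 of 17, with medians of 0.46 with EGTA and -0.00 without. Of these, 3 rose with EGTA and 2 without. Pmaip1, which promotes cell death, was at 1029 and 279 with EGTA and 685 and 258 without. Sesn1, a stress sensor, went against the list, with a slightly smaller time difference with EGTA. It was at 178 and 57.5 with EGTA and 211 and 61.9 without. Endoplasmic reticulum chaperones were greater for 4 of 26, with medians of -0.31 with EGTA and -0.01 without. Hspa5, the main chaperone there, had 8388 and 12234 with EGTA and 7817 and 8689 without, and Manf 2515 and 4812 with EGTA and 1944 and 1737 without. For these the 6 h array with EGTA was the high one. In CD14-deficient cells without EGTA, 8 of 27 replication genes fell. Their median time difference was -0.67, where it was -0.42 with EGTA and -0.05 in wild-type cells without it. Among p53 targets in CD14-deficient cells 5 of 17 rose and 3 fell, with a median of 0.36. The chaperone median there was 0.05.

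Of single genes with the greatest excess, Cyb5d1 had 168 and 118 with EGTA and 65.5 and 145 without, and Sgms1, a sphingomyelin synthase, 256 and 65.6 with EGTA and 198 and 132 without. Wasl, which drives actin branching, had the greatest value, 1.77, but its probe sets differed by between -0.43 and 1.38 with EGTA. Of those with the greatest deficit, Max, the shared partner of MYC and MNT, was at 532 and 876 with EGTA and 701 and 281 without. The histone gene H2bc22 had 137 and 178 with EGTA and 153 and 55.9 without, and the sulfotransferase gene Chst15 54.9 and 97.3 with EGTA and 116 and 57.8 without. Many of these values lay near the floor and are imprecise. Serpinb2, an inhibitor of plasminogen activators, was named after its values were seen. It was at the floor at 6 h in both pairs and reached 88.5 at 24 h with EGTA and 693 without. Slc30a3, a zinc transporter gene also named after its values were seen, was the single gene at least 2-fold apart in opposite directions in the 2 wild-type pairs, at 138 at 24 h and the floor at 6 h with EGTA, and at the floor at 24 h and 133 at 6 h without.

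CD14-deficient cells, given LPS without EGTA, shared less of the time course. In them 295 of 6831 genes were higher at 24 h than at 6 h (4.32%) and 421 lower (6.16%). Of the genes higher with EGTA 125 were also higher there, 32.4% of those with EGTA and 42.4% of those in CD14-deficient cells. Of the genes lower with EGTA 185 were also lower there, 43.7% and 43.9%. Across 6628 genes the Pearson correlation was 0.64 and the Spearman correlation 0.59. All 3 pairs together shared 106 genes higher and 139 lower, 27.5% and 32.9% of those with EGTA. Among lists, NF-kB subunits and feedback inhibitors fell in 0 of 20 with EGTA and in 9 of 19 in CD14-deficient cells. Glycolysis and hypoxia-responsive genes fell in 8 of 24 with EGTA and in 3 of 24 in CD14-deficient cells, with medians of -0.47 and 0.16. Wild-type cells without EGTA resembled the EGTA pair in both lists. In them 0 of 20 NF-kB genes and 9 of 24 glycolysis genes fell, the latter with a median of -0.57. Mitosis genes fell in 31 of 33 in CD14-deficient cells, with a median of -2.34, and in 27 of 34 with EGTA, with -1.47. These differences between pairs were not tested.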

How the data were processed

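Single arrays of 22690 probe sets were deposited as intensities, computed by the authors with MAS5 per the submitters' processing notes. Their scaling target was not known. Of the probe sets, 20393 named 1 gene in GEO's platform annotation, 691 several and 1606 none here, and 20364 were brought to current symbols by gene ID. All 8 arrays were quantile normalized, floored at the 40th percentile and taken to log2. For each of the 4958 genes with several probe sets, the one with the highest mean was used. Calls rest on a 2-fold difference, with no test. The computation was checked on simulated data. Members and gene lists (40 pathway and 10 marker lists, 989 genes, 123 not analysed here) were chosen with earlier results of these data known. Genes named are the 15 largest increases and decreases, the 5 largest bounds each way, up to 5 genes per list, the 10 largest differences of time differences each way, 16 fixed genes and members that go against their list. Other list members that were not called, and those said so in the text, were named after their values were seen. Promoters are RefSeq windows of build GRCm38.p6, 32851 windows of 27025 genes. Alternatives changed the normalization, the floor, the filter and the choice of probe set. Python 3.11.15, numpy 2.4.6, pandas 2.3.3, scipy 1.17.1 and matplotlib 3.10.9 were used. The number of arrays limits the precision.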

Additional observations from a re-analysis of the deposited data

Results flagged for a closer look

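In 4 of the named genes the time difference with EGTA and that in CD14-deficient cells without EGTA were both at least 2-fold and ran in opposite directions. These differences were not tested, since each group was 1 array. Thbs1, thrombospondin, differed by 2.37 on the log2 scale with EGTA and by -1.49 in CD14-deficient cells, a gap of 3.87, with intensities of 652 at 24 h and 126 at 6 h with EGTA and 92.1 and 259.5 in CD14-deficient cells. The sphingomyelin synthase gene Sgms1 differed by 1.97 with EGTA and by -1.57 in CD14-deficient cells, a gap of 3.53, with 256 and 65.6 against 208 and 617. Vcam1, an adhesion molecule, differed by 1.86 with EGTA and by -1.06 in CD14-deficient cells, a gap of 2.92, with 1156 and 318 against 165 and 344. Il1a differed by 1.29 with EGTA and by -1.22 in CD14-deficient cells, a gap of 2.51, with 1583 and 647 against 1886 and 4386. In wild-type cells without EGTA the differences were 2.73 for Thbs1, 0.58 for Sgms1, 2.15 for Vcam1 and 0.91 for Il1a. Another 3 genes, named after their values were seen, were lower with EGTA and higher in CD14-deficient cells, Nrp1 by -1.22 and 1.29, Rgs18 by -1.08 and 1.56, and Sgf29 by -1.33 and 1.04.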

How the results depend on the processing

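No called gene among those named changed sign under any of the 8 alternatives, but values moved. By more than 0.5 log2 units, 47 of 244 named genes moved with intensities as deposited, 43 of 227 with the floor at the 60th percentile, 8 of 254 with it at the 20th and 19 of 248 with the median over probe sets. With intensities as deposited, 1083 genes were higher at 24 h with EGTA and 165 lower, of which 102 and 161 were also called without EGTA. The difference of time differences was then at least 1 greater with EGTA for 2496 genes and at least 1 smaller for 2. In that setting all genes shifted by 0.47 with EGTA and by -0.50 without, and after centring 326 genes were higher and 415 lower with EGTA. Counts within lists changed with it: for DNA replication genes 1 rose and 2 fell of 23, for mitosis genes 2 and 17 of 26, for the ATF4 list 7 and 0 of 19, for MHC class I genes 5 and 0 of 14, for p53 targets 7 and 0 of 17, and for growth factor receptor and lineage genes 10 and 0 of 27. With the floor at the 60th percentile 203 genes were higher and 214 lower, 137 and 144 of them also without EGTA, and the differences of time differences numbered 16 greater and 12 smaller. With the filter at the 75th percentile the counts were 174 and 181, 121 and 120, and 10 and 7. Fewer genes could be called under these limits. With no filter 72 genes had the greater time difference with EGTA. Read relative to all genes, the medians of all 40 pathway lists stayed within 0.5 log2 units, except that for mitosis genes with the 60th percentile floor, at -0.90, and that for matrix proteases with the 75th percentile filter, at -0.25. No paired analysis was possible because each group was 1 array. Values near the floor limit the folds of dim genes.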
